A study of Mus musculus with 11 samples.

Results

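The genes described here were the cyclins, the cyclin-dependent kinases (CDKs), the CDK inhibitors and a set of proliferation genes in islet cells of adult mice. Members were chosen by gene symbol alone, as the A, B, D and E cyclins, the numbered Cdk genes, the Cdkn1 and Cdkn2 inhibitors apart from *Cdkn1c*, the replication helicase genes *Mcm2* to *Mcm7*, and *Mki67*, *Top2a* and *Pcna*. The rule found 44 of the 55401 genes in the count table, and 41 of them had enough counts to be tested. The 11 RNA-seq libraries came from 4 male C57BL6/J mice of 10 weeks by the labels, a younger age being given in the study's text. Each mouse carried a Cre transgene driven by the rat insulin promoter (RIP), a STOP-tdTomato reporter and an Nnat-EGFP transgene, and was chow fed. Cre under the insulin promoter switched on tdTomato in beta cells, and the EGFP transgene, a bacterial artificial chromosome inherited from the father, reported the activity of the promoter of *Nnat*, an imprinted gene for a small endoplasmic reticulum protein. Fluorescence-activated sorting of dispersed islets gave 4 libraries with the label NNAT-positive, 4 with the label NNAT-negative (both of beta cells) and 3 of non-beta cells, mouse 4 having no non-beta library. The 3 fractions therefore shared every transgene and the diet, and a transgene-free control was not analysed here.

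A cell enters division when D cyclins bind CDK4 or CDK6 and the complexes phosphorylate the retinoblastoma protein, which releases E2F factors and the genes of DNA synthesis. E and A cyclins with CDK2 then drive S phase, and B cyclins with CDK1 drive mitosis. INK4 inhibitors (the Cdkn2 genes) block CDK4 and CDK6, whereas CIP/KIP inhibitors (the Cdkn1 genes) bind a wider range of complexes. Adult beta cells divide rarely, cyclin D2 and CDK4 are the members of the G1 machinery best known for beta cell mass in mice, and CDKN2A is the inhibitor best known for its accumulation in ageing beta cells.

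Library totals lay between 30420352 and 43238376 counts, so that the floor of 3 counts used here was 0.0694 to 0.0986 CPM (counts per 1000000 counts of the normalised library), which covers counting error only. The members together took 0.210% to 0.352% of the counts of a library. *Nnat* itself went against the labels, with 50.5, 46.4, 46.0 and 101 CPM in the labelled-positive libraries of mice 1 to 4, 74.8, 80.8, 66.5 and 153 CPM in labelled-negative libraries and 12.9, 29.9 and 17.4 CPM in the non-beta libraries of mice 1 to 3. It was lower in the labelled-positive library in 4 of 4 mice (log2 fold change −0.62, SE 0.17, adjusted p = 0.444), and the study's own listing names the beta fractions the other way round, so the beta fractions are called labelled-positive and labelled-negative throughout. The sort was clear for beta against non-beta cells, as 9 of 9 beta cell markers were called higher in both beta fractions, while the non-beta libraries held alpha, delta, PP, endothelial, leukocyte, mesenchymal and acinar markers together. Since these were bulk samples, fewer cells of a type and less RNA per cell cannot be told apart. The non-beta library of mouse 1 stood apart from those of mice 2 and 3, with 206 CPM summed over *Ccna2*, *Ccnb1*, *Ccnb2*, *Cdk1*, *Mki67* and *Top2a* against 61.9 and 43.0 CPM, and results that rest on it are given with and without mouse 1.

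Levels were compared between genes as mean CPM per kilobase of exon. *Ccnd2* had the highest level of the 44 members in each fraction, at 202 ± 23.7 CPM per kb (SD, n = 4) in labelled-positive libraries, 237 ± 34.96 (SD, n = 4) in labelled-negative libraries and 95.4 ± 11.2 (SD, n = 3) in non-beta cells. *Ccnd1* followed at 56.0 ± 11.0, 56.4 ± 11.0 and 58.7 ± 5.46 CPM per kb, and then *Cdk4* at 28.8 ± 3.28, 28.1 ± 2.34 and 24.01 ± 2.45. *Cdk4*, *Cdk16* (27.7 ± 1.40 CPM per kb) and *Cdkn1b* (24.2 ± 1.85) were neighbours in the labelled-positive fraction, *Cdk4* and *Cdk16* lying within their spread of each other. At the other end, *Cdk6* had 0.0663 and 0.0757 CPM per kb in the beta fractions and ranked 42 of 44. *Ccna1*, a cyclin best known from the germ line, and *Ccnb3*, likewise a meiotic cyclin, had 0 counts in all 11 libraries. *Cdk3*, annotated as a polymorphic pseudogene, had 0 counts in 7 libraries and at most 18 counts, and these 3 genes were not tested.

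Against non-beta cells, the members were called with edgeR's quasi-likelihood test at a Benjamini-Hochberg adjusted p below 0.01 over the 17424 genes tested, with the mouse as a block. In the labelled-positive fraction, 5 of 41 members were higher than in non-beta cells, where 15.8% of all genes were, and 9 were lower, where 19.1% of all genes were. In the labelled-negative fraction, 5 members were higher against 15.6% of all genes, and 10 were lower against 21.3%. These shares were close to those of all genes. The median log2 fold change of the members was −0.17 and −0.12, beside −0.06 and −0.13 over all genes tested. Both comparisons use the same 3 non-beta libraries and are thus not independent. Called in both were 4 members that were higher in beta cells (*Ccnd2*, *Cdk8*, *Cdk14* and *Cdk16*) and 9 that were lower (*Ccnd3*, *Cdk6*, *Cdk17*, *Cdk19*, *Cdkn1a*, *Mcm3*, *Mcm5*, *Mcm6* and *Mcm7*). Another 3 were called in a single comparison (*Cdk18*, *Cdkn2b* and *Mcm4*), and 25 were called in neither. The share of all genes called in both comparisons was not computed.

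**Figure D1:**
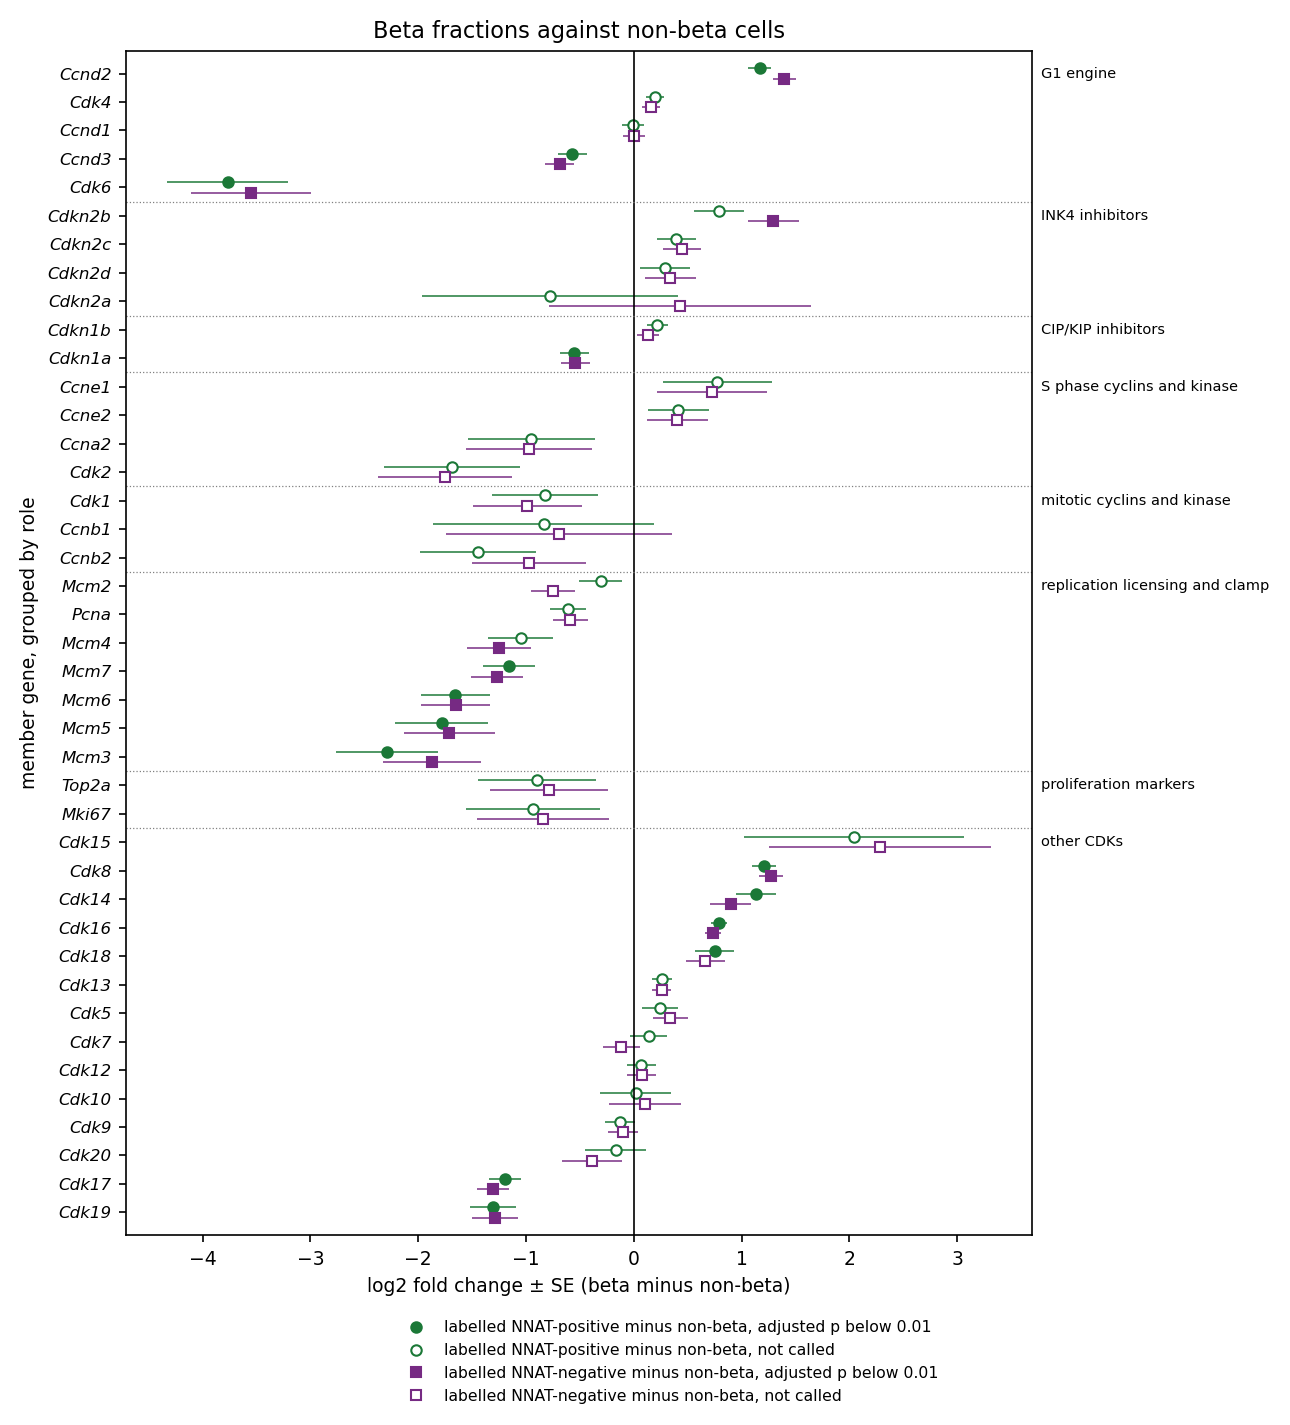
Log2 fold change of each of the 41 tested members in the labelled-positive libraries (green circles, n = 4) and the labelled-negative libraries (purple squares, n = 4) against non-beta cells (n = 3), grouped by role, with bars for the SE and filled symbols for an adjusted p below 0.01. *Ccnd2* and *Cdk8* stand on the right with short bars, while *Cdk6* stands far to the left at −3.77 and −3.55.

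The D cyclins, which start G1 by activating CDK4 and CDK6, differed among themselves. *Ccnd2* (ENSMUSG00000000184, chromosome 6 of GRCm38 from 127125162 to 127152193, minus strand), for cyclin D2, had 2049, 1945, 2023 and 1569 CPM in the labelled-positive libraries of mice 1 to 4, 2094, 2596, 2386 and 1846 CPM in labelled-negative libraries, and 780.4, 928 and 986 CPM in the non-beta libraries of mice 1 to 3. Every beta library was above every non-beta library. The difference was 2.25-fold (log2 1.17, SE 0.11, adjusted p = 1.02e-05) for the labelled-positive fraction and 2.63-fold (log2 1.40, SE 0.11, adjusted p = 2.81e-06) for the labelled-negative fraction, and both calls were kept in each of the 10 other fits tried. *Ccnd3*, for cyclin D3, had 36.7, 37.0, 34.3 and 31.7 CPM in the first and 27.7, 31.9, 38.0 and 30.9 CPM in the second beta fraction, below the 56.8, 55.7 and 46.3 CPM of non-beta cells. Its log2 fold changes were −0.57 (SE 0.13, adjusted p = 0.00473) and −0.69 (SE 0.13, adjusted p = 0.00153), and neither passed without mouse 1 (adjusted p = 0.0213 and 0.0158) or without mouse 2 (0.0264 and 0.0146), nor the first without mouse 4 (0.0104). *Ccnd1*, for cyclin D1, averaged 264 ± 51.7 (SD, n = 4), 265 ± 51.7 (SD, n = 4) and 276 ± 25.7 CPM (SD, n = 3), with log2 fold changes of −0.01 and 0.00 (SE 0.11 and 0.11). Per kilobase, *Ccnd2* made up 75.1% to 84.2% of the D cyclin level in the 8 beta libraries and 57.2% to 61.4% in the 3 non-beta libraries, while *Ccnd1* made up 14.6% to 23.6% and 34.6% to 38.3%.

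Of the kinases that D cyclins activate, *Cdk6* was called in both comparisons and *Cdk4* in neither. *Cdk4* averaged 93.5 ± 10.6 (SD, n = 4), 91.3 ± 7.59 (SD, n = 4) and 78.0 ± 7.97 CPM (SD, n = 3) and passed in neither comparison (adjusted p = 0.0836 and 0.139). *Cdk6* (chromosome 5 of GRCm38, 3341485 to 3531008, plus strand) had 0.955, 1.54, 0.262 and 0.960 CPM in the labelled-positive libraries and 1.13, 0.883, 0.721 and 1.504 CPM in labelled-negative libraries, against 14.4, 6.25 and 11.8 CPM in non-beta cells. The lowest non-beta library was above the highest beta library. *Cdk6* was 13.6-fold (log2 −3.77, SE 0.56, adjusted p = 0.000326) and 11.7-fold (log2 −3.55, SE 0.56, adjusted p = 0.000444) lower in the beta fractions, the lowest value of any tested member, and both calls were kept in each of the 10 other fits. Per kilobase, *Cdk4* was 99.6% to 99.9% of the sum of *Cdk4* and *Cdk6* in beta libraries and 96.3% to 98.0% in non-beta libraries. Markers of other cells were lower alongside *Cdk6*, as 9 of 9 leukocyte markers were called lower in both beta fractions, with sums of 1.30 to 13.5 CPM in beta libraries and 451 to 1060 CPM in non-beta libraries, and 8 of the 9 were at 0 in at least 1 beta library. Likewise 7 of 7 mesenchymal markers were lower, with sums of 0.0609 to 4.69 CPM against 3331 to 8088 CPM and 6 of the 7 at 0 in at least 1 beta library, as were 8 of 8 endothelial markers, with sums of 5.17 to 13.8 CPM against 2400 to 2730 CPM and 7 of the 8 at 0 in at least 1 beta library. Also called lower in both were 6 of 6 alpha, 4 of 4 delta, 2 of 2 PP and 8 of 8 acinar markers. Of 7 ductal markers, 5 were lower and 1 was higher. Alpha sums were 1587 to 4077 CPM in beta libraries and 123279 to 171502 CPM in non-beta libraries. Acinar sums were 10.1 to 2311 CPM and 16421 to 64447.5 CPM. The part of any of these cell types in the level of *Cdk6*, or of any other member lower in beta cells, was not tested.

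Among the inhibitors of these kinases, most did not pass the test. *Cdkn2b*, for the INK4 protein p15, had 6.94, 6.65, 7.02 and 4.55 CPM in the labelled-positive libraries, 9.59, 9.77, 9.04 and 7.00 CPM in labelled-negative libraries and 4.97, 3.52 and 3.36 CPM in non-beta cells. Apart from the labelled-positive library of mouse 4, the beta libraries were above every non-beta library. The log2 fold change was 1.29 (SE 0.23, adjusted p = 0.00109) for the labelled-negative fraction, which was called but not kept without mouse 2 or mouse 3 (adjusted p = 0.0111 and 0.0205), and 0.79 (SE 0.23, adjusted p = 0.0169) for the labelled-positive fraction, which was not. DESeq2 called *Cdkn2b* for the labelled-positive fraction too (adjusted p = 0.00393). *Cdkn2a*, whose locus gives p16 and the tumour suppressor ARF, had 0.169, 0.264, 0.707 and 0.525 CPM, then 0.239, 1.04, 1.498 and 0.875 CPM, and 1.25, 0.212 and 0.3496 CPM in non-beta cells. These values overlapped, and with SEs of 1.19 and 1.22 on the log2 scale a difference was not detectable at this depth. *Cdkn2c* (p18) averaged 16.3 ± 4.94, 16.9 ± 4.22 and 13.7 ± 3.85 CPM (SD, n = 4, 4 and 3), *Cdkn2d* (p19) 11.0 ± 2.13, 11.7 ± 2.68 and 9.64 ± 2.78, and neither was called. The log2 fold changes of *Cdkn2c* in edgeR were 0.40 (SE 0.18, adjusted p = 0.0970) and 0.45 (SE 0.18, adjusted p = 0.0628). Without mouse 1 they were 0.67 (SE 0.17, adjusted p = 0.0137) and 0.66 (SE 0.17, adjusted p = 0.0139), larger but still not called.

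The CIP/KIP inhibitors were split. *Cdkn1a*, for the p53 target p21, had 16.7, 19.1, 18.5 and 23.1 CPM in the labelled-positive libraries, 15.4, 21.1, 19.3 and 22.3 CPM in labelled-negative libraries and 28.2, 29.0 and 23.1 CPM in non-beta cells. It was called lower in beta cells (log2 −0.55, SE 0.14, adjusted p = 0.00680, and −0.54, SE 0.14, adjusted p = 0.00715), though the highest beta and lowest non-beta libraries met. Both calls were lost when any 1 of the 4 mice was left out, with adjusted p from 0.0153 to 0.0463 and from 0.0137 to 0.0656, and without the mouse block (adjusted p = 0.0426 and 0.0454). *Cdkn1b*, for p27, averaged 110 ± 8.41, 105 ± 19.0 and 90.5 ± 7.34 CPM (SD, n = 4, 4 and 3) and was not called (adjusted p = 0.0952 and 0.304). Per kilobase it held 37.2% to 56.1% of the summed level of the 6 inhibitors in beta libraries and 41.0% to 55.5% in non-beta libraries, the largest share of the 6 in each of the 11 libraries.

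**Figure D2:**
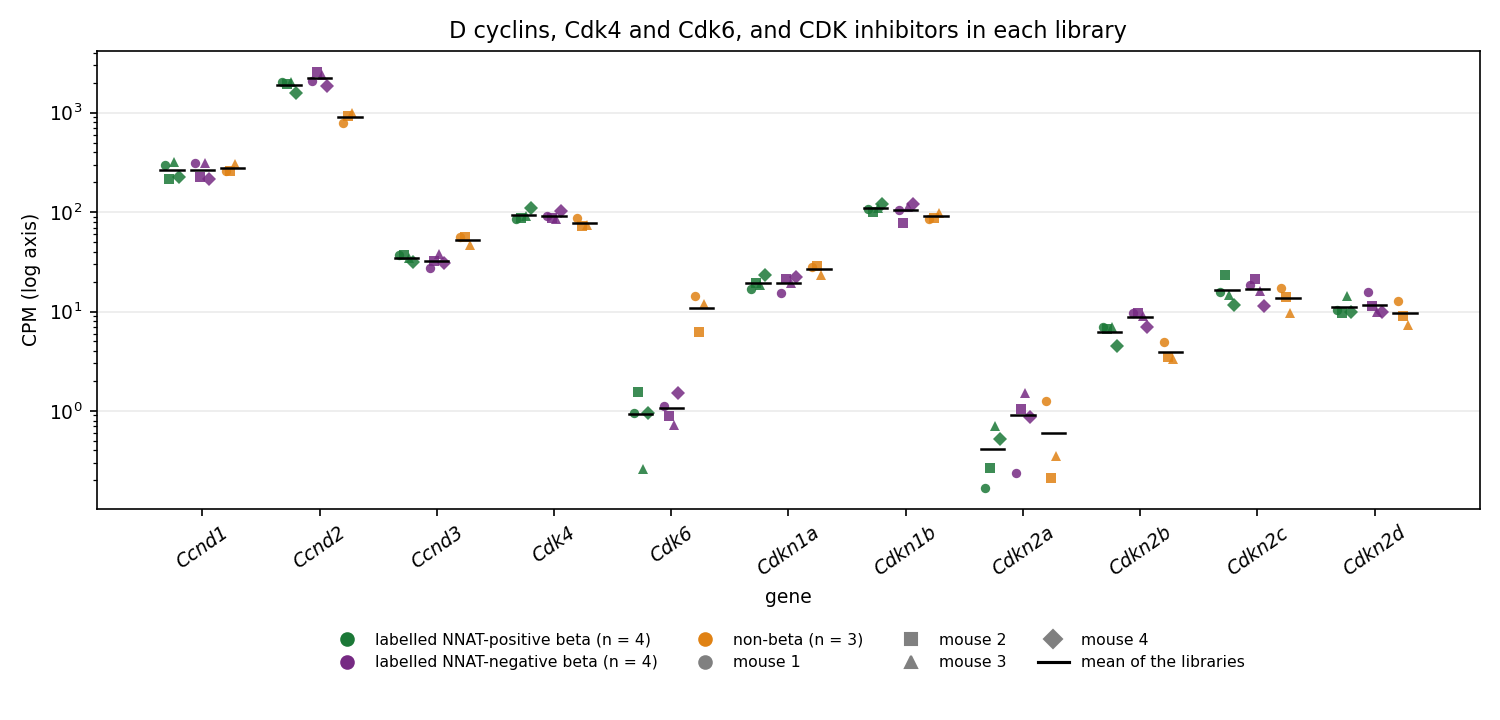
CPM (log axis) of the D cyclins, *Cdk4*, *Cdk6* and the 6 CDK inhibitors in each library, coloured by fraction, with the symbol giving the mouse and the black line the mean of the libraries. *Cdk6* of beta libraries (0.262 to 1.54 CPM) lies below that of non-beta libraries (6.25 to 14.4 CPM), whereas *Ccnd2* lies above and *Ccnd1*, *Cdk4* and *Cdkn1b* overlap.

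The helicase genes *Mcm2* to *Mcm7* license origins before DNA synthesis. Of these 6, 4 were called lower in the labelled-positive fraction, where 19.1% of all genes were. In the labelled-negative fraction 5 were lower, where 21.3% of all genes were. The summed level of the 6 was 52.3 to 82.6 CPM in the 8 beta libraries and 239, 130 and 111 CPM in the non-beta libraries of mice 1 to 3, and the sums did not overlap. *Mcm3*, *Mcm5*, *Mcm6* and *Mcm7* were called in both comparisons, *Mcm4* in that of the labelled-negative fraction, and *Mcm2* in neither. Shown here are promoter windows of the 3 members called in both comparisons with the largest fold changes in each direction, apart from *Ccnd2*, for which no window was matched, because Mcm genes are classical E2F targets. They come from RefSeq on GRCm38.p6, where 35 of the 44 members had a window of 250 bases before and 50 bases after the start. Windows are printed 5′ to 3′ on the gene's strand from 250 bases before the start to 30 bases after it, at chr1:20820283-20820562 on the minus strand for *Mcm3*, chr8:75109259-75109538 on the plus strand for *Mcm5*, chr5:3343643-3343922 on the plus strand for *Cdk6*, chr5:146231000-146231279 on the plus strand for *Cdk8* and chr5:5380222-5380501 on the minus strand for *Cdk14*. The RefSeq starts of *Cdk6* and *Cdk14* lie 2408 and 40061 bases inside the gencode bounds of these genes, so that other starts are not covered. Capitals mark motifs found on either strand, which were CCAAT, the cell cycle element TTTGAA (CHR) and the E2F forms TTCCCGCC, TTTCCCGC, TTTGGCGC and TTTCGCGC, some of which overlap one another.
Mcm3: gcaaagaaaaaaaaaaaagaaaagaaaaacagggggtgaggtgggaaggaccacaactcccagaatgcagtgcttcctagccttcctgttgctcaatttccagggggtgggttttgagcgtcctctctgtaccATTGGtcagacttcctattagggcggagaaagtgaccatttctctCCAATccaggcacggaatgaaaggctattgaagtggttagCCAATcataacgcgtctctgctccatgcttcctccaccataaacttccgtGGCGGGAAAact
Mcm5: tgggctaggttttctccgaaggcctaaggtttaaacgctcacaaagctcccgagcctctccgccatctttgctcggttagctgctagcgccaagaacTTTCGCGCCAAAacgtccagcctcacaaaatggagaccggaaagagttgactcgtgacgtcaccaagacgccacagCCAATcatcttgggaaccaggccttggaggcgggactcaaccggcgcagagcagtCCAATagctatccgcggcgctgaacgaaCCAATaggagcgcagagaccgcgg
Cdk6: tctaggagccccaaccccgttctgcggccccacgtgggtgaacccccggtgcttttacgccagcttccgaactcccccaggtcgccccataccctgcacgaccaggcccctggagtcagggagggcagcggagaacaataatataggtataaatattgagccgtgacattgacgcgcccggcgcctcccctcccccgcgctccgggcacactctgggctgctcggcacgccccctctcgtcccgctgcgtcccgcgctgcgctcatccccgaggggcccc
Cdk8: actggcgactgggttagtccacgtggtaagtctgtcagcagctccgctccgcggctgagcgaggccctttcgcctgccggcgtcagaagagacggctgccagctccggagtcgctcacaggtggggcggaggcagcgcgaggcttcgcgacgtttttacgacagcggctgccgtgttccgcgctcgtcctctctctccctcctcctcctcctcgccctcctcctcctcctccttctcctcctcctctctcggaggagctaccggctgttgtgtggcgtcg
Cdk14: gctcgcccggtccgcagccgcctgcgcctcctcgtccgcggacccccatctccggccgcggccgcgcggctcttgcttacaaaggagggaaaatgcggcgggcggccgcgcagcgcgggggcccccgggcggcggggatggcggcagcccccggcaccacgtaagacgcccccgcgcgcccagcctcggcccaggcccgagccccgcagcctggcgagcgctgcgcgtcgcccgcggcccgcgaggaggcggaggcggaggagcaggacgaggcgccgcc

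Each of the helicase windows printed held an E2F form, in *Mcm3* from 19 bases after the start and in *Mcm5* from 153 bases before it, and each held 3 CCAAT boxes. A further E2F form of *Mcm3*, TTTGGCGC, began at base 39, beyond the printed stretch. The windows of *Cdk6*, *Cdk8* and *Cdk14* held none of these motifs. Among members with a window, an E2F form was found in 7 of 35 (*Cdk1*, *Cdk2*, *Cdkn2a*, *Mcm3*, *Mcm5*, *Mcm6* and *Mcm7*), against 3.49% of the 32851 windows in the RefSeq table. CCAAT was found in 22 of 35 members against 37.4% of windows, and TTTGAA in 7 of 35 (*Ccnb2*, *Cdk1*, *Cdk16*, *Cdkn2b*, *Mcm2*, *Mki67* and *Top2a*) against 17.9%. Some genes have several windows, and a match is a description of the letters and no evidence of binding.

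*Mcm3* (chromosome 1, 20802968 to 20820312, minus strand) had 2.11, 6.41, 3.46 and 4.02 CPM in the labelled-positive libraries, 6.83, 5.12, 6.35 and 3.58 CPM in labelled-negative libraries and 38.3, 17.97 and 11.2 CPM in the non-beta libraries of mice 1 to 3. All beta libraries were below all non-beta libraries, and among the latter mouse 1 was highest. The log2 fold changes were −2.29 (SE 0.48, adjusted p = 0.00268) and −1.87 (SE 0.45, adjusted p = 0.00614). Without mouse 1 they were −1.497 (adjusted p = 0.00779) and −1.35 (adjusted p = 0.0111), so that the second call was lost, as it was without mouse 2 (adjusted p = 0.0187) and without mouse 4 (0.0173). *Mcm5* had 3.48, 9.67, 7.09 and 5.80 CPM, then 6.62, 8.22, 6.80 and 5.96 CPM, and 39.9, 14.4 and 17.1 CPM in non-beta cells. Again the beta and non-beta libraries did not overlap. Its log2 fold changes were −1.78 (SE 0.43, adjusted p = 0.00639) and −1.71 (SE 0.42, adjusted p = 0.00692), and without mouse 1 −0.96 (adjusted p = 0.0128) and −1.05 (adjusted p = 0.00841). The first call was thus lost without mouse 1, and both were lost without mouse 3 (adjusted p = 0.0256 and 0.0287) and without mouse 4 (adjusted p = 0.0158 and 0.0183).

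*Mcm6* had 7.28, 20.2, 9.84 and 11.5 CPM in the labelled-positive libraries, 7.95, 15.9, 12.1 and 11.4 CPM in labelled-negative libraries and 49.6, 36.7 and 23.3 CPM in non-beta cells, with no overlap. Its log2 fold changes were −1.65 (SE 0.32, adjusted p = 0.00181) and −1.65 (SE 0.32, adjusted p = 0.00173). Both calls were kept without mouse 1, at −1.04 and −1.06. *Mcm7* was called at −1.16 (SE 0.24, adjusted p = 0.00262) and −1.27 (SE 0.24, adjusted p = 0.00152), with 9.72 to 15.2 CPM in beta libraries against 39.3, 20.5 and 24.3 CPM. Without mouse 1, the first of these was −0.74 (adjusted p = 0.0140). *Mcm4* had −1.05 (SE 0.30, adjusted p = 0.0147) and −1.25 (SE 0.30, adjusted p = 0.00565), and its libraries of 9.01 to 15.2 CPM lay below the 43.3, 22.0 and 16.6 CPM of non-beta cells. Without mouse 1 the called value was −0.85 (adjusted p = 0.0165) and the other −0.52 (adjusted p = 0.101), and the call was not kept without mouse 2 (0.0189) or mouse 4 (0.0141) either. *Mcm2* averaged 16.4 ± 3.44, 11.9 ± 2.45 and 21.8 ± 5.78 CPM (SD, n = 4, 4 and 3), and the sliding clamp gene *Pcna* 29.3 ± 4.29, 29.9 ± 5.62 and 41.9 ± 11.2 CPM. *Pcna* came close to the threshold in both comparisons, with −0.61 (SE 0.16, adjusted p = 0.0109) and −0.59 (SE 0.16, adjusted p = 0.0128), and *Mcm2* in one, with −0.75 (SE 0.20, adjusted p = 0.0113). Without mouse 1 the values of *Pcna* were −0.34 (adjusted p = 0.0765) and −0.32 (adjusted p = 0.0907), and that of *Mcm2* was −0.52 (adjusted p = 0.104). With all mice, DESeq2 called *Pcna* in both comparisons (adjusted p = 0.000118 and 0.000406). DESeq2 also called *Mcm2* for the labelled-negative fraction (adjusted p = 0.000307) and *Mcm4* for the labelled-positive fraction (adjusted p = 0.000409).

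**Figure D3:**
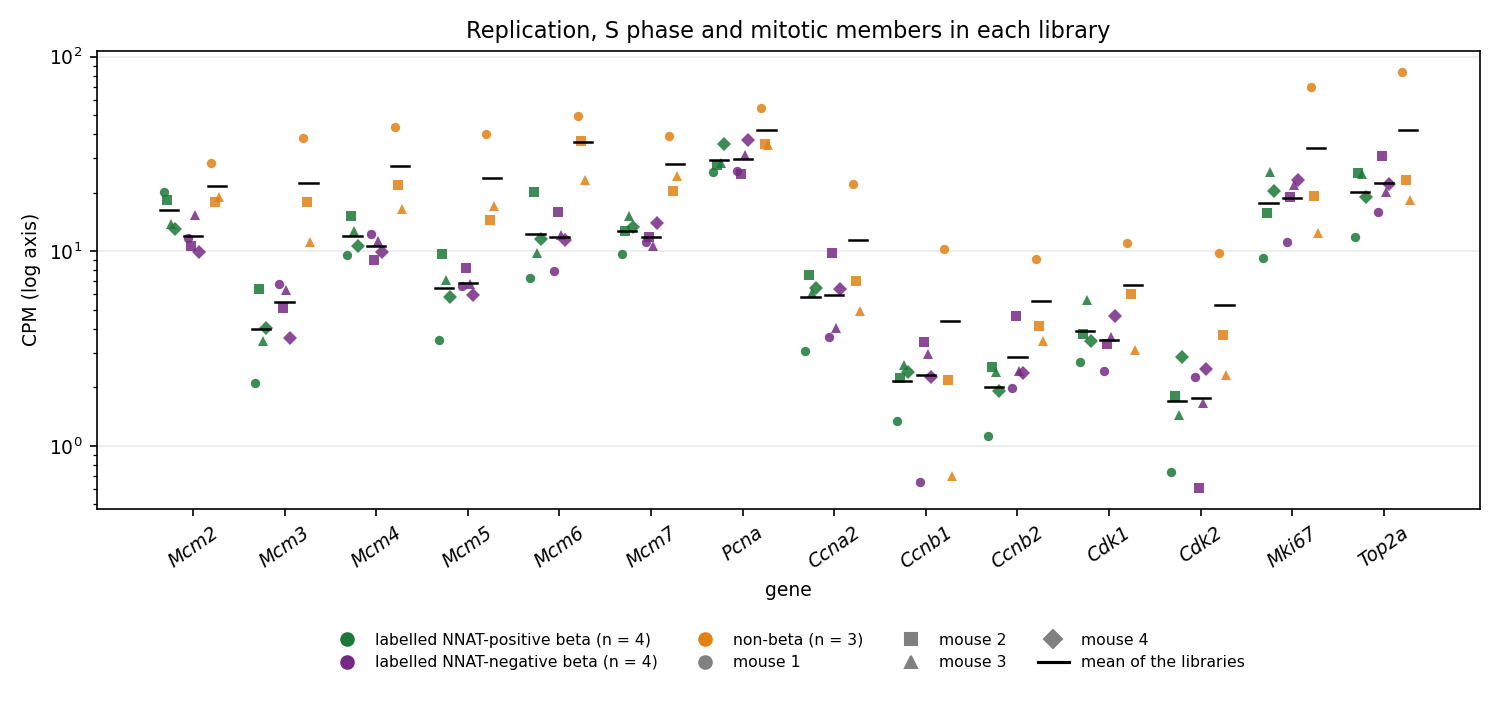
CPM (log axis) of the helicase genes, *Pcna*, and the S phase and mitotic members in each library, coloured by fraction, with the symbol giving the mouse and the black line the mean. The non-beta library of mouse 1 (orange circle) is the highest value for each of the 14 genes, and for *Mki67* (69.6 CPM) and *Top2a* (83.9 CPM) the other non-beta libraries lie among the beta libraries.

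Apart from the helicase genes, the members that mark cells in S phase, G2 and mitosis did not pass edgeR's quasi-likelihood test against non-beta cells. *Mki67*, *Top2a*, *Ccna2* and *Ccnb1* turned direction without mouse 1. *Mki67*, for the proliferation antigen Ki-67, had 9.22, 15.8, 25.4 and 20.3 CPM in the labelled-positive libraries, 11.1, 19.1, 22.0 and 23.2 CPM in labelled-negative libraries and 69.6, 19.2 and 12.5 CPM in the non-beta libraries of mice 1 to 3. Within mouse 1 the non-beta library was the highest of the 3 fractions, whereas in mouse 3 it was the lowest. The log2 fold changes were −0.94 (SE 0.62, adjusted p = 0.248) and −0.84 (SE 0.61, adjusted p = 0.290), and without mouse 1 they were 0.33 (SE 0.27, adjusted p = 0.388) and 0.39 (SE 0.27, adjusted p = 0.291). *Top2a*, for the topoisomerase that untangles replicated chromosomes, had 11.8, 25.2, 25.05 and 19.1 CPM, then 15.9, 31.0, 20.1 and 22.3 CPM, and 83.9, 23.3 and 18.3 CPM in non-beta cells. Its values were −0.90 (SE 0.55) and −0.79 (SE 0.55), and 0.25 (SE 0.17) and 0.32 (SE 0.17) without mouse 1. Of the other members of these phases, *Ccna2* (cyclin A2) averaged 5.79, 5.97 and 11.4 CPM in the labelled-positive and labelled-negative fractions and in non-beta cells, *Ccnb1* (cyclin B1) 2.14, 2.32 and 4.38, *Ccnb2* (cyclin B2) 2.00, 2.86 and 5.56, the mitotic kinase *Cdk1* 3.88, 3.51 and 6.73, and the S phase kinase *Cdk2* 1.71, 1.75 and 5.27 CPM. Without mouse 1, *Ccna2* and *Ccnb1* had positive values, whereas *Ccnb2*, *Cdk1* and *Cdk2* stayed negative, and none of the 5 passed in either edgeR fit. DESeq2 called *Ccnb2* lower in the labelled-positive fraction (adjusted p = 0.00905) and *Cdk2* lower in the labelled-negative fraction (adjusted p = 0.00816). The E cyclins, which open S phase, had 4.29, 4.03 and 3.15 CPM (*Ccne1*) and 6.18, 6.18 and 4.499 CPM (*Ccne2*) and were not called. *Ccne1* had 6.25, 1.85 and 1.34 CPM in the non-beta libraries of mice 1 to 3. Its log2 fold changes in edgeR were 0.77 (SE 0.50, adjusted p = 0.242) and 0.72 (SE 0.51, adjusted p = 0.275). Without mouse 1 they were 1.61 (SE 0.39, adjusted p = 0.0126) and 1.62 (SE 0.40, adjusted p = 0.0120), larger but still not called. The leukocyte marker sum of the non-beta library of mouse 1 was 1060 CPM, against 451 and 508 CPM in those of mice 2 and 3. Its mesenchymal sum was 8088 CPM against 3331 and 4357 CPM. Other sums of this library were lower than in mice 2 and 3. They were 16421 against 64447.5 and 51801 CPM for acinar markers and 6898 against 13507.6 and 12841.5 CPM for delta markers. PP (1857 against 3440 and 3690 CPM), alpha and endothelial sums were lower too. The part of these cell types in its S, G2 and M genes was not tested.

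The other CDKs act mostly in transcription, in neurons or in roles that are less defined. *Cdk8*, a kinase of the Mediator complex (chromosome 5, 146231230 to 146302874, plus strand), had 67.0, 65.9, 68.0 and 122 CPM in the labelled-positive libraries, 68.9, 67.1, 79.0 and 118 CPM in labelled-negative libraries and 24.15, 33.4 and 30.9 CPM in non-beta cells. Each beta library was above each non-beta library, and both libraries of mouse 4 were high. It was 2.32-fold (log2 1.21, SE 0.11, adjusted p = 1.13e-05) and 2.41-fold (log2 1.27, SE 0.11, adjusted p = 7.26e-06) higher in beta cells. Its paralogue *Cdk19*, the alternative Mediator kinase, differed in the opposite direction, with 8.12 to 14.4 CPM in beta libraries against 30.8, 24.9 and 25.2 CPM in non-beta cells. The log2 fold changes of *Cdk19* were −1.31 (SE 0.21, adjusted p = 0.000582) and −1.29 (SE 0.21, adjusted p = 0.000633). Per kilobase, *Cdk8* stood at 8.22 and 8.48 CPM in the beta fractions beside 1.96 and 1.99 CPM for *Cdk19*, and at 3.00 beside 4.61 CPM per kb in non-beta cells. The calls of *Cdk8* and of *Cdk19* were kept in each of the 10 other fits.

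The PCTAIRE kinases *Cdk16*, *Cdk17* and *Cdk18* and the related *Cdk14* were also divided. *Cdk16* had 116, 117, 123 and 129 CPM in the labelled-positive libraries, 114, 113, 117 and 121 CPM in labelled-negative libraries and 70.7, 64.0 and 72.2 CPM in non-beta cells, the beta libraries lying above the others. Its log2 fold changes of 0.79 (SE 0.07, adjusted p = 1.31e-05) and 0.73 (SE 0.07, adjusted p = 2.03e-05) were called in each of the 10 other fits as well. *Cdk14* had 123, 78.3, 83.5 and 73.6 CPM, then 98.3, 52.1, 82.0 and 69.4 CPM, and 47.9, 46.5 and 30.6 CPM in non-beta cells. It was called at 1.14 (SE 0.19, adjusted p = 0.000587) and 0.90 (SE 0.19, adjusted p = 0.00257), the second call being lost without mouse 1 (0.82, adjusted p = 0.0269) and without mouse 3 (0.66, adjusted p = 0.0346). *Cdk18* averaged 15.0 ± 2.62, 14.2 ± 3.49 and 8.89 ± 0.331 CPM (SD, n = 4, 4 and 3) and was called at 0.75 (SE 0.18, adjusted p = 0.00639) but not at 0.66 (SE 0.18, adjusted p = 0.0113). The first of these was lost in 7 of the 10 other fits, among them those without mouse 1 (adjusted p = 0.0392), mouse 3 (0.0786) or mouse 4 (0.0151). It was also lost with DESeq2's size factors in edgeR (0.0118), without the hormone genes (0.0108) and without the mouse block (0.0162). The fit of the compared libraries alone lost it too (0.0185). The second passed without mouse 2 (0.00405) and in DESeq2 (0.00138). *Cdk17* was lower in beta cells, at −1.20 (SE 0.15, adjusted p = 9.41e-05) and −1.31 (SE 0.15, adjusted p = 4.51e-05). Its beta libraries of mouse 4, with 25.3 and 20.0 CPM, stood above those of mice 1 to 3, with 8.94 to 13.2 CPM, and met the non-beta libraries at 21.04, 30.9 and 25.9 CPM. Without the mouse block *Cdk17* was not called (adjusted p = 0.0815 and 0.0401).

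The remaining CDKs were called in neither comparison. Mean levels in the labelled-positive, labelled-negative and non-beta fractions were 22.9, 19.6 and 18.9 CPM for *Cdk7*, which activates other CDKs, and 34.7, 35.4 and 37.0 CPM for *Cdk9*, which releases paused RNA polymerase. *Cdk12* and *Cdk13*, which phosphorylate elongating polymerase, had 39.3, 39.5 and 34.6 CPM and 60.0, 60.0 and 49.0 CPM. *Cdk13* libraries did not overlap between beta and non-beta cells, yet its adjusted p of 0.0338 in both comparisons missed the threshold. *Cdk5*, known from neurons and also active in beta cells, had 29.7, 32.2 and 25.3 CPM, *Cdk10* had 10.5, 11.0 and 8.09 CPM, *Cdk20* had 6.57, 5.76 and 6.56 CPM, and *Cdk15* had 1.37, 1.82 and 0.570 CPM. The 25 members called in neither comparison had log2 fold changes from −1.75 to 2.28, the ends being *Cdk2* and *Cdk15*, which were low in CPM.

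Between the beta fractions, 0 of 41 members were called with edgeR's quasi-likelihood test, where 0.0517% of all genes were, and 0 with DESeq2, where 0.786% were. At an unadjusted p below 0.05, edgeR gave 3 members and DESeq2 also 3. In edgeR, 1 member was higher in the labelled-positive fraction, where 4.82% of all genes were, and 2 were lower, where 0.746% of all genes were. The members' median log2 fold change (labelled-positive minus labelled-negative) was −0.01 beside 0.05 over all genes, and 39 of 41 members were within 0.5 of zero on the log2 scale. SEs ranged from 0.06 for *Cdk16* to 0.94 for *Cdkn2a*, with a median of 0.20, so that for scarce members such as *Cdkn2a*, *Cdk15* and *Ccnb1* a change as large as 2-fold was not detectable at this depth. No tested member had beta libraries of one label entirely above those of the other. The share of all genes for which this held was not computed.

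Of the tested members, 4 were lower in the labelled-positive library in 4 of 4 mice (*Ccnb2*, *Ccnd2*, *Cdkn2a* and *Cdkn2b*). Another 2 were higher in 4 of 4 mice (*Cdk14* and *Cdk16*), and the shares of all genes were not computed. *Ccnd2* had a log2 difference of −0.23 (SE 0.09, adjusted p = 0.836 in edgeR's quasi-likelihood test). The gap was small in mouse 1 (2049 against 2094 CPM) and larger in mouse 2 (1945 against 2596 CPM). *Cdkn2b* was also lower in 4 of 4 mice, at −0.50 (SE 0.20, adjusted p = 0.836). *Mcm2* was higher in the labelled-positive library in 3 of 4 mice, with 20.1, 18.4, 13.9 and 13.04 CPM against 11.7, 10.7, 15.4 and 9.90 CPM, mouse 3 going the other way. Its log2 fold change was 0.45 (SE 0.18, adjusted p = 0.845). The other 38 members ranged from −1.20 (*Cdkn2a*) to 0.25 (*Cdk7*), with unadjusted p of at least 0.129. *Mki67* differed by −0.09 (SE 0.51) and *Top2a* by −0.11 (SE 0.46), and the summed level of the 6 S, G2 and M genes was 29.2 to 67.2 CPM in one and 35.7 to 71.3 CPM in the other beta fraction. Beside these values, markers of other islet cells had higher sums in the labelled-positive libraries, with alpha cell sums of 2818 to 4077 CPM against 1587 to 2486 CPM (0 of 6 called), delta cell sums of 1403 to 2490 CPM against 543 to 1046 CPM (1 of 4 called) and PP cell sums of 299.7 to 421 CPM against 89.0 to 159 CPM (2 of 2 called). Of these 12 markers, 11 were above the floor of 3 counts in every beta library and *Irx1* had 2 counts in 1 of them, and their part in the members' values was not tested.

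**Figure D4:**
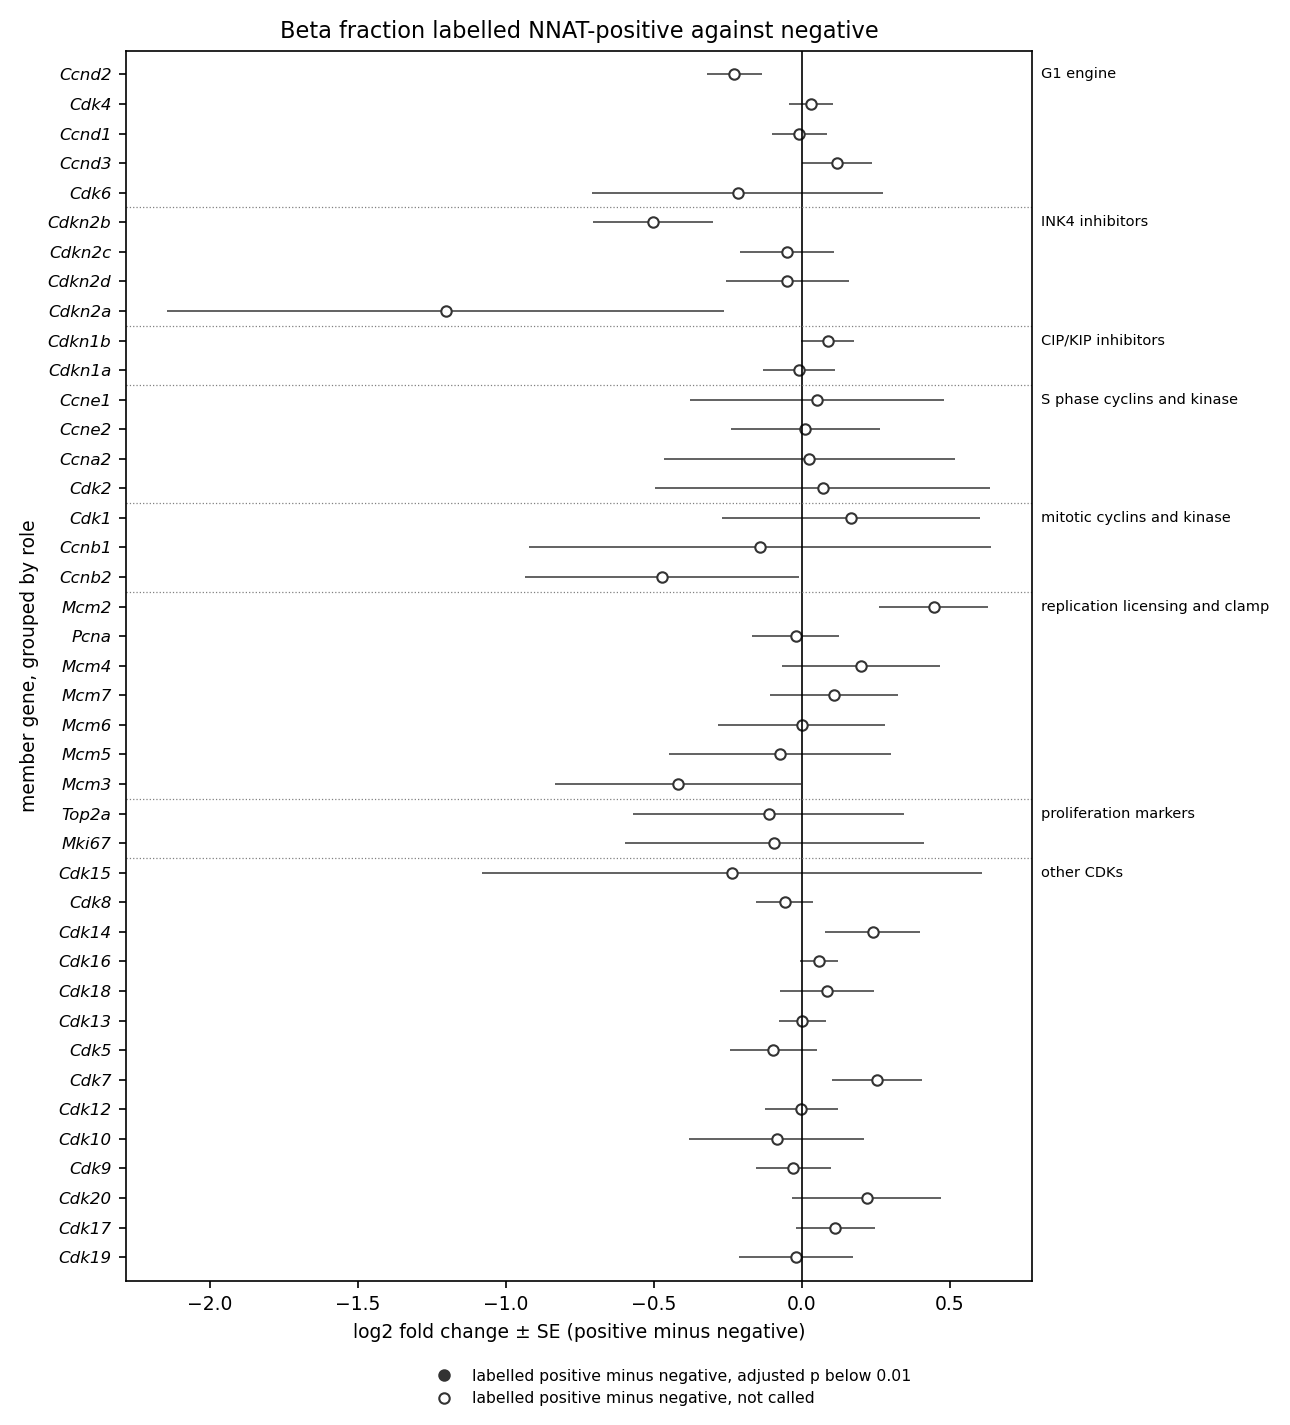
Log2 fold change of the 41 tested members between the labelled-positive libraries (n = 4) and labelled-negative libraries (n = 4), grouped by role, with bars for the SE and open symbols for genes not called. No symbol is filled, and 39 of 41 lie within 0.5 of zero.

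Among other genes of the same pathway, values without mouse 1 were added after the data were seen. Of 13 pocket proteins and E2F factors, 2 were called higher and 0 lower in each beta fraction, where 15.8% and 15.6% of all genes were higher. *E2f1*, the activating factor that retinoblastoma protein restrains, had 18.9, 26.1, 25.7 and 14.5 CPM in the labelled-positive libraries, 22.9, 41.8, 31.9 and 17.8 CPM in labelled-negative libraries and 7.59, 9.14 and 7.88 CPM in non-beta cells. Every beta library was above every non-beta library, with log2 fold changes of 1.52 (SE 0.15, adjusted p = 1.73e-05) and 1.92 (SE 0.15, adjusted p = 3.44e-06). The repressor *E2f6* was called at 0.96 (SE 0.10, adjusted p = 2.17e-05) and 0.93 (SE 0.10, adjusted p = 2.53e-05), whereas *Rb1*, for the retinoblastoma protein, was not called (0.09 and 0.13). Of 23 further S phase genes, 0 were called higher and 2 lower (*Gins4* and *Pola1*) in the labelled-positive fraction, and 1 higher (*Orc6*) and 1 lower (*Pola1*) in the labelled-negative fraction, where 19.1% and 21.3% of all genes were lower. *Pola1*, for the catalytic subunit of DNA polymerase alpha, had −1.04 (SE 0.26, adjusted p = 0.00752) and −1.39 (SE 0.27, adjusted p = 0.00153), and without mouse 1 −0.99 (adjusted p = 0.00417) and −1.06 (adjusted p = 0.00275). The median of this list was −1.04 and −1.09 on the log2 scale, beside −0.06 and −0.13 over all genes, and −0.54 and −0.57 without mouse 1, beside −0.07 and −0.12. Without mouse 1, *Gins4* was not called (adjusted p = 0.0132) and *Orc6* was called in the labelled-positive in place of the labelled-negative fraction (adjusted p = 0.00626 and 0.0102). Of 35 genes of G2 and mitosis, 1 was called lower in the labelled-positive fraction, and 4 lower (*Bub1b*, *Mad2l1*, *Cenpa* and *Cdc25b*) and 1 higher (*Pbk*) in the labelled-negative fraction, shares below those of all genes called lower. Their median turned from −0.50 and −0.53 to 0.26 and 0.32 without mouse 1, when 3 were called higher in each fraction (*Pbk* and *Racgap1* in both, *Cenpf* in the first and *Hmmr* in the second) and 0 lower. Of all genes, 24.9% and 26.4% were called in either direction without mouse 1. *Bub1b*, a kinase of the spindle checkpoint, was called in both at −1.84 (SE 0.44, adjusted p = 0.00601) and −1.87 (SE 0.45, adjusted p = 0.00590), with 2.18 to 3.39 CPM in beta libraries against 21.3, 5.78 and 5.57 CPM, and was not called without mouse 1 (−1.14, adjusted p = 0.0436, and −1.09, adjusted p = 0.0518). In the labelled-negative fraction, the checkpoint gene *Mad2l1* (−1.13, adjusted p = 0.00486) and the centromeric histone gene *Cenpa* (−1.67, adjusted p = 0.00535) were also lower, and neither call was kept without mouse 1 (adjusted p = 0.0520 and 0.0483). None of the genes of these 3 lists was called between the beta fractions in edgeR's quasi-likelihood test. Only *E2f1* had an unadjusted p below 0.05, where 4.82% of all genes were higher and 0.746% lower in the labelled-positive fraction. *E2f1* stood at −0.40 (SE 0.13, adjusted p = 0.623), lower in the labelled-positive library in 4 of 4 mice, and it is named after its values were seen.

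Reads of neighbouring genes could bear on some of these values, since 16 members share exonic bases with a gene on the opposite strand and the sources used here do not state whether the counting used strand. *Ccnd2* shares 372 bases with *Gm43126* and 368 with *9330179D12Rik*, *Ccnd1* 1100 with *LTO1*, *Cdk4* 641 with *Tspan31*, *Ccnd3* 361 with *Bysl*, *Mcm7* 321 with *Ap4m1* and *Cdk17* 316 with *Elk3*.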

How the data were processed

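RNA-seq was performed on FACS-sorted islet cells, 4 with the label NNAT-positive and 4 with NNAT-negative (beta cells) and 3 of non-beta cells. The authors made poly(A)-selected directional libraries with paired reads of 75 bp, aligned them to mm10 with STAR 2.7.1a (version from the submitters' processing notes), counted reads per gene on gencode release 25 and deposited the raw counts without normalisation. Total counts per library were 30420352 to 43238376. The 202 table entries without a gene symbol kept their identifiers, and no value column was left unmapped. No pair among the 55 pairs of libraries was identical. Each replicate was an individual mouse.

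Counts were analysed in R 4.3.3 with edgeR 4.0.16, using TMM normalisation, filterByExpr by fraction (17424 genes kept), all 11 libraries, and fraction and mouse as terms of the quasi-likelihood fit. Calls had a Benjamini-Hochberg adjusted p below 0.01 over all genes tested. The SE was taken as the size of the log2 change over the root of its F statistic. CPM were scaled by TMM library sizes, and exon lengths and positions came from gencode release 21 (GRCm38), which 55141 gene identifiers matched. Same-numbered libraries came from one mouse by the methods and labels, and the deviations from the group means correlated by 0.314 on average within a mouse between the beta fractions (0.182 to 0.658, 4 pairs) against −0.103 between mice (12 pairs). Deviations from a group mean cancel within the group, so the negative value between mice follows from the centring and is no separate support. The highest value was that of mouse 4, the other mice having 0.182 to 0.219. Within-mouse correlations with non-beta libraries were lower (0.0903 to 0.125 and 0.0321 to 0.0662, 3 pairs each).

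DESeq2 1.42.0, DESeq2's size factors in edgeR, no filter, no mouse block, hormone genes left out, fits of the compared libraries alone, other thresholds and each mouse left out were the alternatives. On simulated counts, for the comparison of the labelled-positive fraction with non-beta cells over 16840 genes, edgeR recovered 97 of 100 genes changed 2-fold and 100 of 100 changed 4-fold, and called 1 unchanged gene, while DESeq2 recovered 95 and 100 and called 3. In the data, SEs of the members in that comparison ranged from 0.07 to 1.19 on the log2 scale. Recovery at the spread of each member was not tested. All members were named. Members called against non-beta cells, or with an unadjusted p below 0.05 between the beta fractions, were given with their statistics, and up to 3 called genes with the smallest p per pathway list. Promoter windows came from RefSeq (GRCm38.p6). The members and lists were chosen with earlier results of these data known. A gene of the S phase list is not reported here and was left out of that list's counts and median. The study's single-cell, methylation, proteomic and imaging data were not analysed here.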

Additional observations from a re-analysis of the deposited data

Results flagged for a closer look

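The beta libraries of each label, in groups of 4, were searched for a library far from the other 3 on the log2 CPM scale, and 3 of 82 groups held one, where chance alone gives about 1 in 20. In the labelled-positive libraries, mouse 4 had 27.6 CPM of *Cdk7* against 21.1 to 21.5 CPM in the other mice. The same library had 122 CPM of *Cdk8* against 65.9 to 68.0 CPM. It also had 4.55 CPM of *Cdkn2b*, below the 6.65 to 7.02 CPM of the other mice. The labelled-negative library of mouse 4 likewise had the highest *Cdk7* (26.6 CPM) and *Cdk8* (118 CPM) and the lowest *Cdkn2b* (7.00 CPM) of its fraction, without being far enough from the others to meet the same criterion.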

How the results depend on the processing

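No member changed the sign of a called value in any alternative, and 13 of the 29 calls against non-beta cells were kept in each of the 10 other fits. Between the beta fractions 0 members were called in every alternative tried, among them an adjusted p below 0.05, where at most 0.786% of all genes were called. When the fit held the compared libraries alone, 8 in place of 14 members were called for the labelled-positive fraction against non-beta cells and 9 in place of 15 for the labelled-negative fraction. Of all genes, 32.7% and 25.6% were called, in place of 34.8% and 36.8%. The members lost were *Cdk18*, *Cdkn1a*, *Mcm3*, *Mcm5*, *Mcm6* and *Mcm7* in the first comparison. In the second they were *Ccnd3*, *Cdk14*, *Cdkn1a*, *Cdkn2b*, *Mcm4* and *Mcm5*. A fit of the compared libraries alone has fewer libraries from which to estimate the spread. Leaving out a mouse gave 9 to 12 and 10 to 11 members, the lowest value in each case being that without mouse 1, whose non-beta library stood apart. Of all genes, 22.5% to 31.3% and 24.1% to 33.7% were called in these fits, with 24.9% and 26.4% without mouse 1. Without the mouse block, as the alternative to the pairing by mouse, 12 and 13 members were called, with *Cdk17* and *Cdkn1a* lost in both comparisons, *Cdk18* lost in the first, *Cdk14* in the second, *Mcm4* gained in the first and *Mcm2* in the second. Of all genes, 29.6% and 31.7% were called without the block. DESeq2 called 18 and 19 members, beside 43.8% and 45.6% of all genes. DESeq2's size factors in edgeR gave 14 and 17 members, beside 34.0% and 36.4%, and no filter on low counts 16 and 16, beside 22.6% and 23.9%. Leaving out the hormone genes gave 14 and 17, beside 34.1% and 36.6%. An adjusted p below 0.05 gave 19 and 20, beside 47.4% and 49.1%. An adjusted p below 0.01 with more than 2-fold gave 10 and 11, beside 21.6% and 23.3%. Of the members, 41 or 42 were tested in each fit. At 30420352 to 43238376 counts, *Cdkn2a*, with fraction means of 0.416 to 0.912 CPM, had SEs of 0.94 to 1.22 on the log2 scale, which limits what its tests can detect. The SE did not follow the level alone. Against non-beta cells, *Cdk6*, at 0.928 and 1.06 CPM in the beta fractions, had SEs of 0.56 and 0.56. *Ccnb1*, at fraction means of 2.14 to 4.38 CPM, had SEs of 1.02 and 1.05. With 3 non-beta libraries, 1 of which differed in its S, G2 and M genes, the size of the fold changes of *Mki67*, *Top2a* and the Mcm genes is uncertain.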
